A study of Terfezia claveryi
Helianthemum almeriense and Terfezia claveryi with 9 samples.

Results

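In roots of drought-stressed plants, 71 gene models of the desert truffle Terfezia claveryi were read at 25% or less of their level in well-watered roots and in cultured mycelium alike, out of 12765 gene models in the deposited tables. These drought-low genes were chosen by the measured values themselves. Each had a mean of at least 20 CPM (reads of the gene, scaled by the total fungal gene reads of its library) in cultures and in well-watered roots, a ratio of these means between 0.25 and 4, a drought mean at least 4-fold below each, and a highest drought library below the lowest of the other 6 libraries. The differences between drought roots and the other groups are therefore a description of how the genes were selected and carry no test.

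Terfezia claveryi is an edible ascomycete truffle of dry Mediterranean soils. It lives on the roots of rockroses such as Helianthemum almeriense, where its hyphae grow between root cells and, in the form called ectendomycorrhiza, also inside them. The plant supplies carbon, and the fungus supplies mineral nutrients and is known for helping its host to tolerate dry soil. The deposited files give each gene model by a Tercla1 identifier and pair none with a name or a product, so the roles of the drought-low genes are not given here, no sequence is shown, and no pathway or marker list could be applied.

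Drought roots came from Helianthemum almeriense plants inoculated with truffle spores 3 months earlier, whose soil moisture had been lowered to 40% and kept there until shoot water potential was below -2 MPa. Well-watered roots came from plants inoculated in the same way and kept above 75% soil moisture. Cultures were mycelium of strain T7, shaken in the dark in liquid medium for 3 months at 23 °C. Each group has 3 libraries, which the submitters call biological replicates; the plant or flask behind each is not named. RNA came from secondary and tertiary roots or from mycelium. The root samples hold the plant as well as the fungus, and the genotypes that grew from the spores are not stated in the labels.

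The libraries held 3493361 to 5470044 fungal gene reads in drought roots, 869998 to 1635015 in well-watered roots and 15855363 to 31854784 in cultures. A single read was worth 0.183 to 0.286 CPM in drought roots, 0.612 to 1.15 CPM in well-watered roots and at most 0.0631 CPM in cultures. For pooled folds, a group with no read was set at 3 reads, which is 0.240 CPM over the drought libraries. Reads carry no molecular identifiers, and both intervals and floors reflect counting error alone. All levels are shares of the fungal reads of a library. In such bulk samples, fewer hyphae of a given kind and less RNA per hypha cannot be told apart.

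Within their own group, 2 libraries stood furthest apart for the drought-low genes. Well-watered replicate 1 was the lowest of its group for 51 of the 71 genes (71.8%), and drought replicate 2 was the lowest of its group for 44 (62.0%). Among all 4605 gene models with at least 20 CPM in cultures and well-watered roots and a ratio within 4-fold, here called steady genes, the same libraries were lowest for 30.2% and 39.3%. Culture replicate 1 was the lowest culture for 40 of the 71 genes (56.3%), against 37.0% of steady genes. The selection used these values, so the shares are a description. The main summary values are given with and without well-watered replicate 1 and drought replicate 2.

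As a group the 71 genes took 0.344%, 0.317% and 0.343% of fungal reads in drought roots, against 1.79%, 3.09% and 3.06% in well-watered roots and 2.79%, 2.98% and 3.05% in cultures. No drought library came near any library of the other groups, and well-watered replicate 1 lay below the other well-watered libraries and below every culture. The mean share was 0.335 ± 0.0154% in drought roots, 2.65 ± 0.742% in well-watered roots and 2.94 ± 0.134% in cultures (SD, n = 3 each). Without well-watered replicate 1 the well-watered mean was 3.07%, and without drought replicate 2 the drought mean was 0.343%. The total varied little between the drought libraries although single genes varied much more, as described further on.

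**Figure D1:**
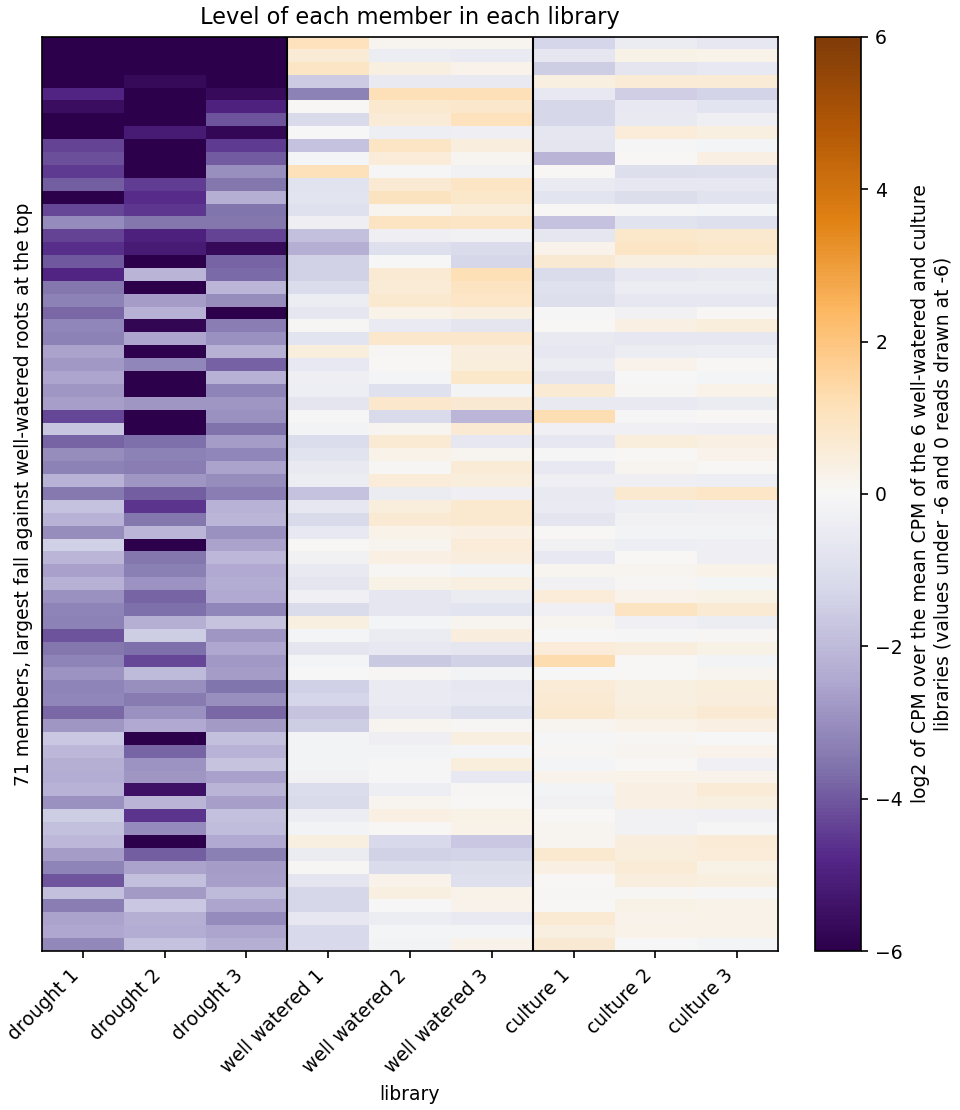
Level of each of the 71 drought-low genes (rows) in the 9 libraries (columns), as log2 of its CPM over its mean CPM in the 6 well-watered and culture libraries, with values under -6 and genes without reads drawn at -6. The drought columns lie on the purple, low side for every gene, in varying depth, because the genes were chosen so. The column of drought replicate 2 has 16 genes with no read. The column of well-watered replicate 1 lies on the purple, low side for more genes than those of well-watered replicates 2 and 3.

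Per length, the genes covered a wide range. Their mean RPKM (CPM divided by the length of the gene model in kilobases) ran up to 322 in drought roots with a median of 15.3, against 12.3 to 1966 with a median of 113 in well-watered roots and 13.3 to 2901 with a median of 128 in cultures. A few genes carried most of the reads. The 10 most abundant took 56.6% of the reads of the set in drought roots, 54.6% in well-watered roots and 54.6% in cultures. In the steady genes the median mean level per length was 53.9 RPKM in drought roots, 47.7 in well-watered roots and 54.5 in cultures, so the median drought-low gene was more abundant than the median steady gene in well-watered roots and cultures; this difference was not tested.

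Steady genes were rarely this low under drought. Of the 4605, 71 (1.54%) were drought-low genes, a further 3 were 4-fold below both means with overlapping libraries, and 55 (1.19%) stood at least 4-fold above both means. The median steady gene was at 110% of its well-watered level and at 92.5% of its culture level in drought roots. The 71 genes had a median of 14.0% of the well-watered level and 12.8% of the culture level. The median against the well-watered level was 11.7% without well-watered replicate 1 and 15.1% without drought replicate 2, and that against cultures was 11.9% without drought replicate 2.

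**Figure D2:**
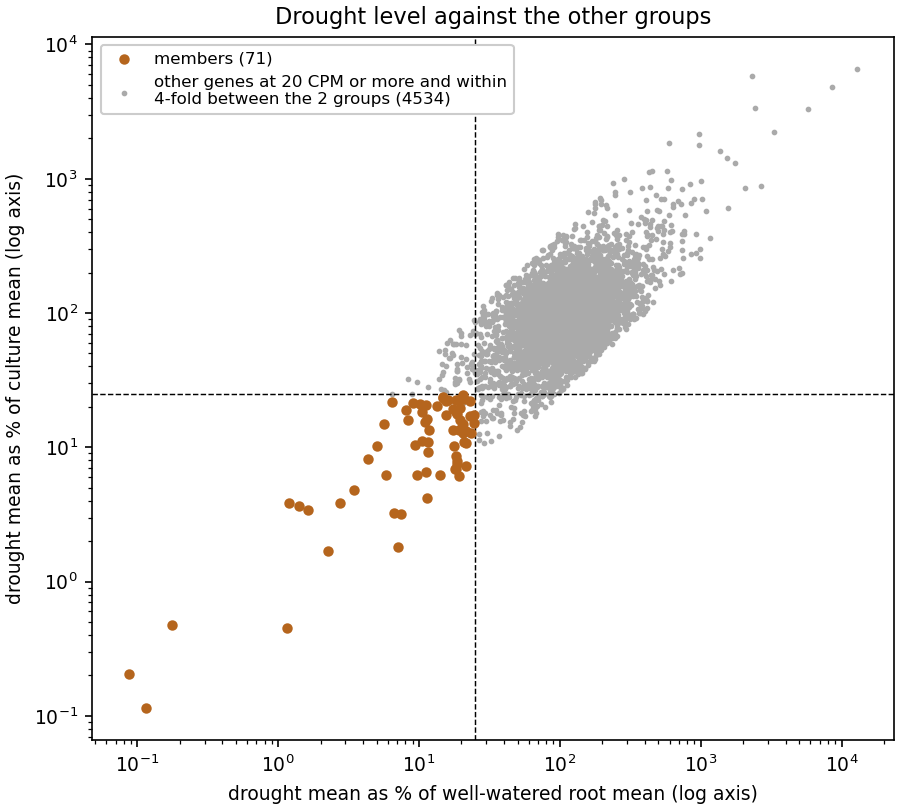
Mean drought level of each steady gene as a percentage of its mean in well-watered roots (horizontal, log axis) and in cultures (vertical, log axis); genes without a drought read are drawn at the floor of 3 reads. Brown points are the 71 drought-low genes, grey points the other steady genes, and dashed lines mark 25%. Most brown points lie between 5% and 25%, and 3 lie below 1% on both axes.

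How low the genes stood was uneven. Drought levels were at or below 5% of both other means for 10 genes, at or below 10% for 16 and at least 8-fold below for 23. Separation of single libraries was weaker than that of means. Every well-watered and culture library stood at least 2-fold above the highest drought library for 61 of the 71 genes and 2.13% of steady genes, and at least 4-fold above it for 18 of the 71 and 0.391% of steady genes; the selection fixes this direction. Across all gene models tested, 10.2% were called lower in drought than in well-watered roots and 21.8% lower in drought roots than in cultures (quasi-likelihood test of edgeR, with 0.05 as the limit on adjusted p). Of the 71 genes, 67 were called lower against well-watered roots and 66 against cultures; the selection used these contrasts, so nothing is read from the counts.

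Genes next to the thresholds show where the set ends. The nearest gene inside the 4-fold limit (1848 bases) had a drought mean of 41.5 CPM, against 168 CPM in well-watered roots and 237 CPM in cultures, or 24.7% of the lower mean. The nearest gene outside it (1352 bases) had 20.4 CPM in drought roots, 317 CPM in well-watered roots and 81.1 CPM in cultures, or 25.1% of the lower mean. At the 20 CPM limit, the lowest gene inside (1432 bases) had a culture mean of 23.3 CPM and the highest gene outside (1182 bases) a well-watered mean of 19.2 CPM. The 4-fold limit cuts through a continuous distribution, since a 3-fold limit would take 117 genes and an 8-fold limit 23.

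The lowest drought level relative to well-watered roots was that of jgi|Tercla1|1274210| (2796 bases). It had no read in any drought library, against 406, 211 and 210.3 CPM in well-watered roots and 80.1, 145 and 128 CPM in cultures. The 3 drought libraries were empty of it and the well-watered libraries all lay above the cultures. Its pooled reads were 0 in drought roots, 1070 in well-watered roots and 9727 in cultures. With 3 reads counted in place of 0 over the drought group, it was 1162-fold lower in drought than in well-watered roots and 522-fold lower than in cultures. From the 0 reads themselves, the exact 95% binomial lower limits were 943 and 424. Without drought replicate 1, the deepest of the drought libraries, the folds with 3 reads counted were 654 and 294.

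The second, jgi|Tercla1|927125| (1383 bases), had 0.183, 0 and 1.15 CPM in drought roots, against 588, 292 and 271 CPM in well-watered roots and 240, 473 and 455 CPM in cultures. Its well-watered and culture libraries overlapped and their means were close, at 384 ± 177 and 389 ± 130 CPM (SD, n = 3 each). The drought level rested on 5 reads, 4 of them in replicate 3. The pooled fold was 976 against well-watered roots (exact 95% binomial interval 417 to 3011) and 1046 against cultures (448 to 3222), both lower in drought roots, and without drought replicate 3 it was 3517 and 3770. The same pair of genes led against cultures as against well-watered roots.

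Nearly as low was another gene. The gene model of 1320 bases had 0.914, 0 and 0.573 CPM in drought roots, against 361, 253 and 225 CPM in well-watered roots and 67.9, 118 and 128 CPM in cultures. Together these are the 3 genes with 10 or fewer reads over the drought group. Whether the fungi of those roots carry these genes was not tested. For most of the 71 the drought reads were plentiful, with a median drought mean of 20.4 CPM.

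Between well-watered roots and cultures the 71 genes divided evenly around equality. By mean CPM, 35 were higher in well-watered roots and 36 higher in cultures, with a median ratio of well-watered roots to cultures of 0.996 and a range from 0.253 to 3.36; the selection admits ratios from 0.25 to 4. At least 2-fold differences were found for 11 genes higher and 13 lower in well-watered roots, and 47 lay within 2-fold. The steady genes leaned more to cultures, with a median ratio of 0.828 and 38.1% higher in well-watered roots. The libraries of the 2 groups did not overlap for 9 of the 71 genes higher and 19 lower in well-watered roots, against 20.1% and 38.9% of steady genes. By the edgeR test 14 of the 71 genes were called higher and 11 lower in well-watered roots than in cultures, at adjusted p under 0.05, against 24.4% and 24.5% of all gene models tested. The count of 14 genes was 29 without well-watered replicate 1, 6 without well-watered replicate 2 or 3, 8 without culture replicate 1 and 7 without culture replicate 2 or 3, and the count of 11 was 6 without culture replicate 3. Over all gene models tested, 2176 of 8919 were called higher with every library. Without well-watered replicates 1, 2 and 3 these were 2485 of 9368, 1884 of 9369 and 2032 of 9378. Without culture replicates 1, 2 and 3 they were 1754 of 7944, 1627 of 7924 and 1603 of 7936. Called lower were 2183 of 8919 with every library and 1342 of 7936 without culture replicate 3. Without well-watered replicate 1, 15 of the 71 genes and 2832 of 9368 gene models were called lower. The direction of the middle of the set also moved with scaling: by trimmed-mean scaling (TMM) 40 of the 71 genes were higher in well-watered roots, and this scaling moved log2 ratios of well-watered roots to cultures by a median of 0.14 over 5784 genes. By total reads the median log2 ratio over those genes was -0.18. The lean and overlap of steady genes were taken by total reads only.

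The highest ratio of well-watered roots to cultures belonged to jgi|Tercla1|1043575| (1764 bases). It had 111, 81.8 and 80.7 CPM in drought roots, against 734, 1813 and 1712 CPM in well-watered roots and 261, 523 and 482 CPM in cultures. The 3 groups did not overlap and stood in the order drought roots, cultures, well-watered roots. Its mean was 91.1 ± 17.0 CPM in drought roots, 1419 ± 596 CPM in well-watered roots and 422 ± 141 CPM in cultures (SD, n = 3 each). It was thus 3.36-fold higher in well-watered roots than in cultures. The fold was 4.18 without well-watered replicate 1, 2.90 without well-watered replicate 2 and 2.82 without culture replicate 1. Its drought mean was 6.42% of the well-watered mean and 21.6% of the culture mean.

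The second, jgi|Tercla1|1098582| (1068 bases), had 3.47, 0 and 2.00 CPM in drought roots, against 10.5, 222 and 223 CPM in well-watered roots and 66.5, 35.7 and 39.5 CPM in cultures. Well-watered replicate 1 held far less of it than the other well-watered libraries, less than any culture and 3.02-fold more than the highest drought library. The mean ratio of well-watered roots to cultures was 3.21, which joins 2 libraries above the cultures and 1 below them, and 4.71 without well-watered replicate 1. The pooled drought level was 71.6-fold below well-watered roots, or 150-fold without drought replicate 1, 51.3-fold without drought replicate 2, 107-fold without well-watered replicate 1 and 45.4-fold without well-watered replicate 2. Against cultures it was 20.9-fold lower, or 43.7-fold without drought replicate 1 and 14.99-fold without drought replicate 2.

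At the other end, jgi|Tercla1|1201072| (1190 bases) had 22.5, 15.8 and 11.2 CPM in drought roots, against 118, 306 and 271 CPM in well-watered roots and 666, 1072 and 1011 CPM in cultures. The groups did not overlap, in the order drought roots, well-watered roots, cultures. Its mean of 232 ± 99.9 CPM in well-watered roots was 3.95-fold below the 916 ± 219 CPM of cultures, close to the limit of the selection, and its drought mean was 16.5 ± 5.69 CPM (SD, n = 3 each). Among the 71 genes, jgi|Tercla1|1087829| (1785 bases) was the most abundant in cultures. It had 247, 450.4 and 250.2 CPM in drought roots, against 1004, 2169 and 1785 CPM in well-watered roots and 5578, 4739 and 5216 CPM in cultures. With a culture mean of 5178 ± 421 CPM (SD, n = 3) it made up 17.6% of the reads of the set there, and its well-watered mean was 3.13-fold lower than its culture mean. Pooled, its drought level was 5.49-fold below well-watered roots and 16.7-fold below cultures.

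**Figure D3:**
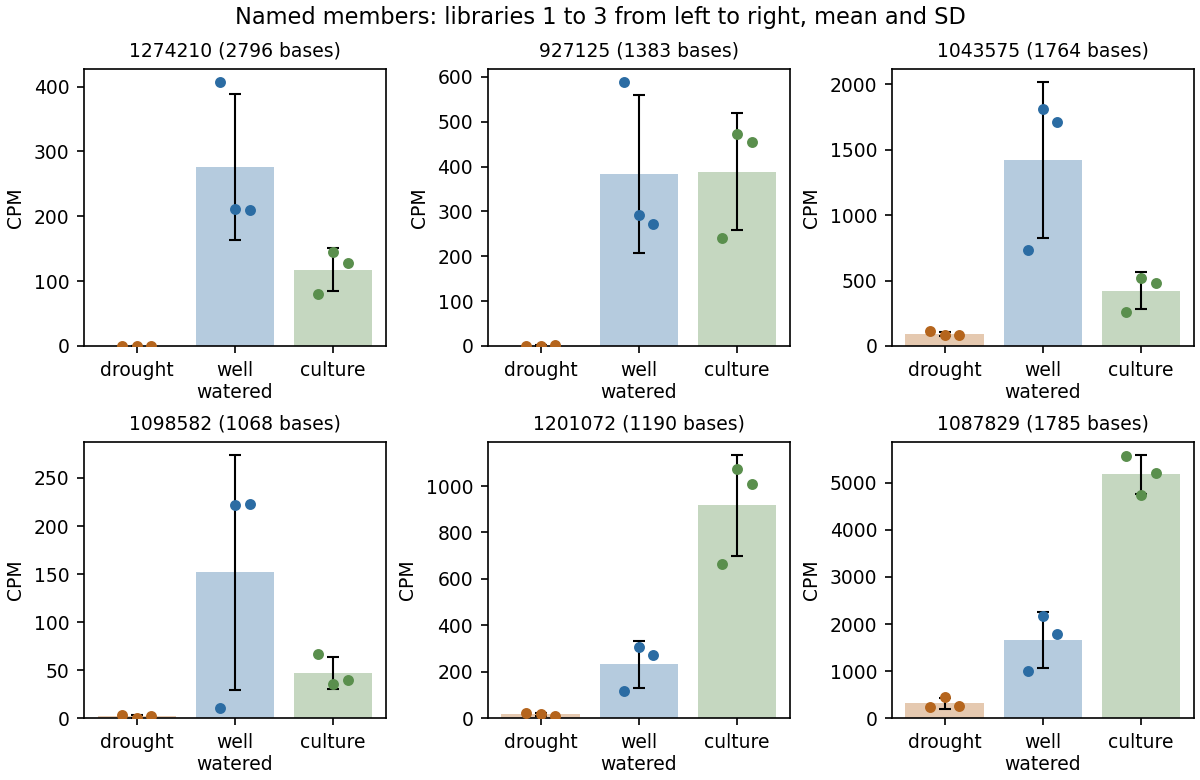
CPM of the 6 named drought-low genes in drought roots, well-watered roots and cultures; points are libraries 1 to 3 from left to right, bars are means and error bars SD (n = 3 each). In all 6 panels every drought point lies below every other point, while well-watered roots have the higher mean against cultures for 1274210, 1043575 and 1098582, and the lower mean for 1201072 and 1087829.

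In well-watered roots the most abundant gene of the set was the gene model of 1344 bases. It had 39.1, 13.0 and 58.4 CPM in drought roots, against 1840, 2974 and 3113 CPM in well-watered roots and 761, 1203 and 1051 CPM in cultures. Its well-watered libraries lay above all cultures, and its drought mean was 1.39% of the well-watered mean and 3.66% of the culture mean. The most abundant in drought roots per length was the gene model of 969 bases, with 306, 337 and 295 CPM there, against 727, 1553 and 1531 CPM in well-watered roots and 2194, 1976 and 2012 CPM in cultures. It was steady between the drought libraries and close to the 4-fold limit, at 24.6% of the well-watered mean.

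To see the genes in values that had not chosen them, the selection was repeated on 8 libraries and the genes it found were read in the library left out. Leaving out drought replicate 1, 2 or 3 gave 77, 68 and 84 genes. In the drought library not used, 51 (66.2%), 43 (63.2%) and 50 (59.5%) of them were at least 4-fold below both other group means, against 1.76%, 3.93% and 1.61% of all steady genes, by the same 8 libraries, in the same library. In that library 76, 64 and 79 of these genes lay below every well-watered and culture library, against 21.5%, 25.3% and 20.8% of steady genes. The well-watered and culture values used here are those that chose the genes, and a single library allows no test.

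The same was done for the other groups. Leaving out well-watered replicate 1, 2 or 3 gave 73, 69 and 69 genes, of which 49 (67.1%), 63 (91.3%) and 59 (85.5%) were at least 4-fold higher in the library not used than the drought mean. The shares of steady genes were 2.02%, 3.43% and 3.64%. For culture replicates 1, 2 and 3 the selection gave 70, 72 and 71 genes, with 63 (90.0%), 69 (95.8%) and 67 (94.4%) at least 4-fold higher in the culture not used, against 3.34%, 3.78% and 3.35% of steady genes. Well-watered replicate 1 thus gave a lower share than the other 5 well-watered and culture libraries. The drought mean used here was among the values that chose the genes. These shares ask for a single comparison, while those of the drought libraries ask for both, so they are not comparable.

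**Figure D4:**
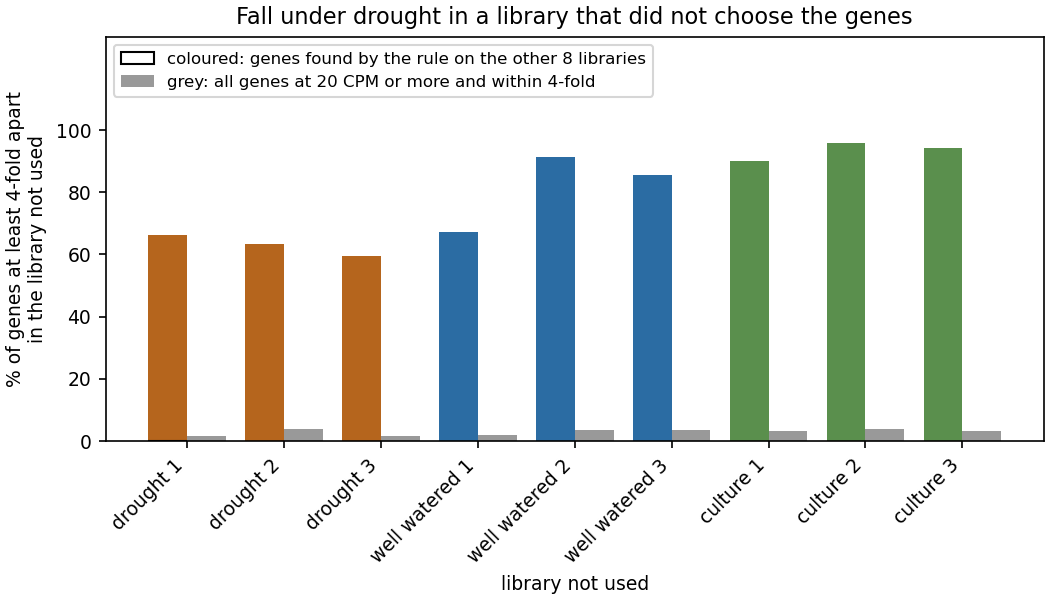
Share of genes at least 4-fold apart in a library that had no part in choosing them. A drought library had to be 4-fold below both other means, a well-watered or culture library only 4-fold above the drought mean. The means compared with were among the values that chose the genes. Coloured bars are the genes that the selection finds on the other 8 libraries (brown drought, blue well watered, green culture) and grey bars all steady genes. Brown bars run from 59.5% to 66.2%, blue and green bars from 67.1% to 95.8% and grey bars from 1.61% to 3.93%. Brown bars are not comparable with blue and green bars.

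The spread inside the groups had its own pattern. The median drought-low gene stood in well-watered replicate 1 at 0.561 of its mean in the other well-watered libraries, against 1.14 for the median steady gene. In well-watered replicates 2 and 3 the medians were 1.20 and 1.30 for drought-low genes and 0.934 and 0.929 for steady genes. Well-watered replicate 1 held 50% or less of the mean of the other libraries for 28 of the 71 genes (39.4%), against 6.49% of steady genes. It was above the culture mean for 14 of the 71, while well-watered replicates 2 and 3 were above it for 38 each. It stood at least 4-fold above the drought mean for 53 of the 71 genes, against 67 and 64 in the other well-watered libraries. The selection already sets the well-watered mean at least 4-fold above the drought mean, so these last counts only describe it. Neither the counts above the culture mean nor these were taken for steady genes.

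Drought replicate 2 was the other low library. The median drought-low gene stood there at 0.598 of its mean in the other drought libraries, against 1.04 for the median steady gene, while drought replicates 1 and 3 had medians of 1.10 and 1.25 for drought-low genes and 0.955 and 0.988 for steady genes. It held 50% or less of the mean of the other drought libraries for 30 of the 71 genes (42.3%), against 10.4% of steady genes, and at least 2-fold that mean for 7. These were largely not the genes low in well-watered replicate 1: 7 genes were low in both libraries, 21 in well-watered replicate 1 alone, 23 in drought replicate 2 alone and 20 in neither. The cultures differed less by median, with 0.926, 1.02 and 1.07 for drought-low genes. Culture replicate 1 still held 50% or less of the mean of the other cultures for 6 of the 71 genes (8.45%), against 1.11% of steady genes. The selection used the drought values and so favours genes that are low in any drought library. The contrasts of drought replicate 2 with steady genes are therefore a description. Neither depth nor any other property of these libraries was tested as a reason.

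**Figure D5:**
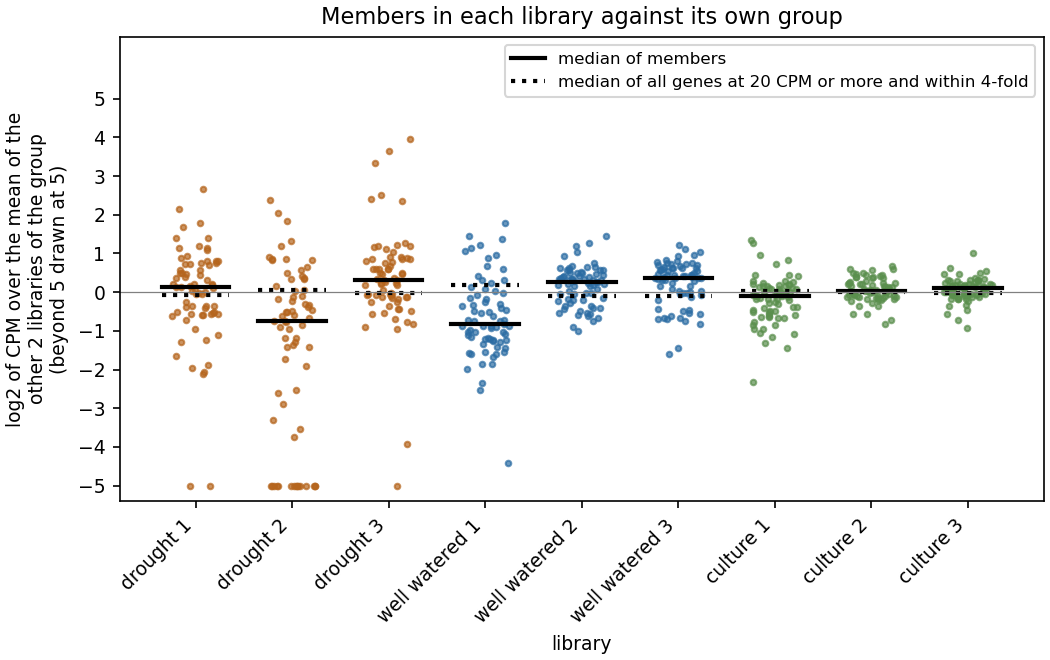
Each point is a drought-low gene: log2 of its CPM in a library over its mean in the other 2 libraries of the group, with values beyond 5 drawn at 5. Solid lines are medians of drought-low genes and dotted lines medians of steady genes; the solid line lies well below the dotted line in drought replicate 2 (ratios 0.598 and 1.04) and in well-watered replicate 1 (0.561 and 1.14). The selection used the values shown, so the contrast with steady genes is a description.

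A total absence of reads was mostly a property of drought replicate 2. Of the 71 genes, 16 had no read there, against 2 each in drought replicates 1 and 3, and 15 of the 16 were read in both of the other drought libraries. Only 26 of the 4605 steady genes had no read in drought replicate 2, so 16 of the 26 belong to the set; the selection favours genes without drought reads. The clearest case was the gene model of 762 bases, with 195 reads in drought replicate 1 (35.6 CPM), 0 in replicate 2 and 94 in replicate 3 (26.9 CPM), against 189, 63.0 and 46.0 CPM in well-watered roots and 160, 196 and 220.2 CPM in cultures. The opposite pattern was seen for the gene model of 1764 bases with 0, 3.67 and 0 CPM in drought roots, against 63.0, 128 and 129 CPM in well-watered roots and 247, 278 and 284 CPM in cultures. Genes missing from the fungi of a given root and genes silent in them cannot be told apart.

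Length was not itself a condition of the selection. The limit of 20 CPM is not divided by length, however, so a longer gene model reaches it at a lower RPKM. Steady genes passed the same limit. The gene models were 297 to 9313 bases long (median 1383), against a median of 1577 for steady genes and 1132 for all gene models with a read. Short models of 500 bases or fewer made up 7 of the 71 (9.86%) and 3.69% of steady genes, and models of 5000 bases or more 3 of the 71 (4.23%) and 2.69% of steady genes. The longest, of 9313 bases, had 49.0, 35.8 and 49.8 CPM in drought roots, against 208, 278 and 259 CPM in well-watered roots and 377, 865 and 699 CPM in cultures. These shares are given as a description, without a test.

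Reads shared between gene models touched few of the genes. For 63 of the 71 every read was unique to the model, and for 6 more at most 4.85% of reads were shared. The remaining 2 had no unique read at all, so their levels are uncertain. The gene model of 1285 bases had 0.548, 9.31 and 49.5 CPM in drought roots, against 141, 481 and 425 CPM in well-watered roots and 139, 121 and 138 CPM in cultures. The gene model of 1284 bases had 65.6, 3.10 and 17.7 CPM in drought roots, against 193, 234 and 330 CPM in well-watered roots and 177, 178 and 176 CPM in cultures. On unique reads alone the selection kept the other 69 genes and added none.

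The same selection with the root groups exchanged, which takes genes lower in well-watered roots than in drought roots and cultures, gave 106 gene models. Their median length was 1225.5 bases, and their median level per length in the group where they were low was 11.6 RPKM, against 15.3 RPKM for the 71 drought-low genes in drought roots. Well-watered libraries were shallower than drought libraries, and the difference between the sets was not tested.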

How the data were processed

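Per the file headers, the authors deposited counts of unique and of total gene reads, not normalized, and RPKM per gene model. Tools listed per the submitters' processing notes are FastQC, Bowtie2 2.3.0 and SAMtools 1.7. How reads were counted, with or without strand, and on which genome build is not stated there. RPKM as deposited gave the same whole-number length in every library for all 11241 gene models with a read (relative tolerance 1e-06), and lengths are taken from it.

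CPM were total gene reads over their sum per library. Each pair of groups was fitted with edgeR 4.0.16 (R 4.3.3; filterByExpr, TMM, robust quasi-likelihood F test, Benjamini-Hochberg adjustment over all gene models tested); DESeq2 1.42.0 was an alternative. The edgeR step and the selection were run on simulated data as a check of the code only. For the selection, these data held sampling noise alone, unlike the real libraries. Folds of named genes from drought roots use reads pooled per group. With no gene names, identifiers are printed for the 2 genes lowest in drought roots against each other group and the 2 highest and 2 lowest ratios of well-watered roots to cultures; genes given by length were chosen after their values were seen. Members and rules were chosen with earlier results of these data known. Libraries of a group differed beyond sampling noise.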

Additional observations from a re-analysis of the deposited data

How the results depend on the processing

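The selection gave 117 genes with a 3-fold limit and 23 with an 8-fold limit, in place of 71. Other scalings, levels, overlap, thinning to 869998 reads, unique reads and libraries left out gave 59 to 84 genes; 57 of the 71 were kept without drought replicate 2, 64 without well-watered replicate 1 and 53 without both, an alternative chosen after seeing the data. Without both, the folds against well-watered roots were 630 for jgi|Tercla1|1274210|, with 3 reads counted in place of 0, and 511 for jgi|Tercla1|927125|. After thinning, the folds for jgi|Tercla1|1274210|, again with 3 reads counted, were 233 against well-watered roots and 104 against cultures. Genes of the set called higher in well-watered roots than in cultures numbered 14, but 8 with total-count scaling and in a joint fit of all 9 libraries. With a library left out they numbered 6 to 29. Those called lower numbered 11, and 6 to 15 with a library left out. The 15 were found without well-watered replicate 1, where 2832 of 9368 gene models were called lower, against 2183 of 8919 with every library. Over all gene models tested, 2176 of 8919 were called higher, 1844 of 8919 with total-count scaling and 1885 of 8690 in the joint fit. With the replicate number as a replicate block, 59 genes of the set were called lower in drought than in well-watered roots, in place of 67. Against cultures 66 were called lower, as without it. In well-watered roots against cultures 18 genes of the set were called higher and 16 lower. Over all gene models tested, the block called 672 of 8029 lower in drought than in well-watered roots, in place of 822. It called 1552 of 9001 lower in drought roots than in cultures, in place of 1958. Of 8919, it called 1891 higher and 1963 lower in well-watered roots than in cultures. Same-numbered libraries deviated together with correlations of -0.0424 to 0.117 over 5784 genes, and differently numbered ones with -0.135 to 0.120. Between drought and well-watered roots, same-numbered pairs had 0.0166 to 0.0588 and differently numbered pairs -0.0521 to -0.00439. The labels do not say whether the numbers pair the samples, and with 3 libraries per group these values cannot decide it. TMM scaling moved log2 ratios of drought to well-watered roots by a median of -0.20 over the same genes. The set's shares of reads and median ratios moved by less than the spread between libraries under each alternative run for them, but the median log2 ratio of well-watered roots to cultures, -0.01, was 0.14 by TMM and 0.27 by DESeq2 size factors. The cause of these shifts was not tested. Depth sets the smallest step of a level, with 1 read worth up to 0.286 CPM in drought roots, 1.15 CPM in well-watered roots and 0.0631 CPM in cultures.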
